A study of Mus musculus with 20 samples.

Results

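The calcium pumps described here are the P-type ATPases that clear calcium from the cytosol of brain cells. The members are all probe sets that the probe annotation gives to Atp2a2, Atp2a3, Atp2b1, Atp2b2 or Atp2b3, whatever their values. The genes themselves were chosen with earlier results of these data known, so the counts below are not those of a blind choice. Of these 5 genes 3 have a probe set, among 12393 genes with a probe set of their own on the array. The 3 genes have 9 of the 22626 probe sets other than controls, 4 for Atp2a2, 2 for Atp2a3 and 3 for Atp2b2. Atp2b1 and Atp2b3 have no probe set in that annotation and were not analysed here. All 9 passed the filter on dim values and are among the 15627 probe sets tested.

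Calcium enters neurons through voltage-gated channels and transmitter receptors and is also released from the endoplasmic reticulum (ER). Plasma membrane calcium ATPases (the Atp2b genes) push it out of the cell and are switched on by calmodulin. Sarco/endoplasmic reticulum calcium ATPases (the Atp2a genes) pump it back into the ER, from which it can be released again. Cerebellar Purkinje cells, the output neurons of the cerebellar cortex, are known for large calcium signals and for high levels of the Atp2b2 pump, and mice that lack Atp2b2 function are deaf and ataxic.

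Total RNA from mouse brain was hybridised to 20 arrays. They hold knock-in (KI) and wild-type (WT) mice, each as cerebellum and forebrain, with 2 arrays per group at 11 weeks of age and 3 per group at 4 weeks, which makes 8 groups. Which allele was knocked in is not in the labels, which give no strain or sex and do not say whether an array stands for 1 mouse or a pool, so p-values measure the spread between these arrays, which may be technical. Titles give the older age as 12 weeks, descriptions as 11, the age used here.

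The region labels conflict. For 7 of the 10 forebrain arrays, all those of KI mice and both of WT mice at 11 weeks, the source field names cerebellum. The titles of these 7 also open with cerebellum, and for 1 of them, KI at 4 weeks replicate 3, the description names it too. Region was taken from the short code that follows in each title, Cb for cerebellum and Cx for forebrain. Pcp2, a Purkinje cell gene, had an intensity of 38010 to 55244 on the 10 cerebellum arrays, against 50 to 579 on the forebrain arrays, and Camk2a, a gene of forebrain excitatory neurons, had 14 to 385 on the cerebellum arrays against 4828 to 14567 on the forebrain arrays. No KI forebrain array is left without the 7 arrays, so no forebrain genotype difference can be given without them. The deposited values share a common array mean, with array medians of 979 to 1180. In all 4 region and age groups the KI medians lay above the WT medians with no overlap, the widest gap being 1097 to 1117 in KI forebrain at 4 weeks against 979 to 1036 in WT forebrain, and the second principal component of the tested probe sets was above 0 on every KI array and below 0 on every WT array. The part of this array-wide difference in the pump values was not tested. The quantile and cyclic loess values given with the counts are shares of all tested probe sets, and the pump counts beside them are on the deposited scale. The ratio of the 3' to the 5' GAPDH control was 0.744 to 0.903. No scan date was used, so any batch that goes with genotype, region or age cannot be told apart from it.

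Differences are KI minus WT on the scale of log2(intensity + 16), with standard errors (SE) from a limma model of all 20 arrays. A probe set is called where its adjusted p from limma, two-sided and Benjamini-Hochberg adjusted over the 15627 tested, is under 0.05. Levels are linear intensities and are not compared between probe sets, whose probes differ in strength. The 9 probe sets read 3 genes on the same arrays, so counts over them are not counts of separate genes. In whole tissue, fewer cells of a type and less RNA per cell cannot be told apart.

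The promoters of Atp2a3, which had the largest regional difference of the 3 genes, and Atp2b2, which had the largest genotype differences called, are shown. The sources used here held no promoter sequence for Atp2a2, so these were the only 2 of the 3 genes that could be shown. Each is the 250 bases before a RefSeq start site in the GRCm38.p6 assembly, 5′ to 3′ on the strand of the gene. Atp2a3 lies at chr11:72960919-72961168 on the plus strand, and the first of 3 listed Atp2b2 starts has chr6:114042081-114042330 on the minus strand. Capitals mark matches to the GC box GGGCGG on either strand, read as CCGCCC on the other strand.
Atp2a3: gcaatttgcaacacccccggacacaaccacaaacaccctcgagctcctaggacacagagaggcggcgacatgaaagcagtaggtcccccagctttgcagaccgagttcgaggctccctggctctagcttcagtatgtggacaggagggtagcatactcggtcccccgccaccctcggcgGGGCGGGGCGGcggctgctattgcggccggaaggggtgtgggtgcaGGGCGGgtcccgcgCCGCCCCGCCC
Atp2b2: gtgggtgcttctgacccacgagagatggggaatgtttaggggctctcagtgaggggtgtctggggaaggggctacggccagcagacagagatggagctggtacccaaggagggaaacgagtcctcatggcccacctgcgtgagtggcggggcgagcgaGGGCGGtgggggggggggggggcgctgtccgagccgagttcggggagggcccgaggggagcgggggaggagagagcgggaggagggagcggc
The Atp2a3 window holds 5 GC boxes, which overlap in 2 pairs, and is 66.8% G and C. The Atp2b2 window holds 1 GC box and is 69.6% G and C. Of 32851 mouse promoters of the same length, 32.7% hold at least 1 GC box. Neither window holds AGGTCA, a nuclear receptor motif, or the TATA box letters TATAAA on either strand, which 14% and 12.4% of the promoters hold. A match describes the letters only and is not shown here to be a site in use.

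Atp2b2, the plasma membrane pump, was lower in KI forebrain on all 3 of its probe sets. Averaged over the ages, the log2 differences ran from -0.64 to -0.41, and all 3 were called. Each of the 3 calls was lost in some fits with 1 forebrain array left out, where the differences ran from -0.79 to -0.36. In cerebellum its differences were smaller, at -0.43 to -0.14, and none was called. The difference in genotype effect between the regions was tested and was not called for any of the 3.

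The brightest Atp2b2 probe set, 1433888_at, had intensities of 20644 and 19838 in KI forebrain at 11 weeks, against 26141 and 29500 in WT forebrain. At 4 weeks it had 21148, 24290 and 25271 in KI forebrain, against 34301, 26215 and 30360 in WT forebrain. Every KI forebrain array lay below every WT forebrain array at both ages, the highest KI value being 25271 and the lowest WT value 26141. The difference averaged over the ages was -0.41 ± 0.10 (SE; adjusted p = 0.0183, limma), a level 1.33-fold lower in KI.

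In cerebellum the same probe set had 29104 and 21966 in KI mice at 11 weeks, against 30213 and 29073 in WT mice. Its 4-week values were 26757, 26808 and 29478 in KI cerebellum, against 29494, 34680 and 29452 in WT cerebellum. The groups overlapped at both ages, and the spread of the KI pair at 11 weeks (25535 ± 5050, SD, n = 2) covered the WT mean of 29643. The cerebellar difference was -0.20 ± 0.10 (SE; adjusted p = 0.266, limma).

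Probe set 1420402_at had 4425 and 2918 in KI forebrain at 11 weeks, against 5106 and 6495 in WT forebrain. The arrays at 4 weeks gave 3427, 4396 and 6074 in KI forebrain, against 6246, 7015 and 7247 in WT forebrain. The forebrain groups did not overlap at either age. In cerebellum it had 5747 and 3692 in KI mice at 11 weeks, against 6558 and 5770 in WT mice. The 4-week cerebellum pair of groups was also apart, with 5370, 7092 and 6197 in KI mice against 7543, 9731 and 8238 in WT mice. Every KI array therefore lay below every WT array of its region and age, in 4 of 4 groups, although the gap at 11 weeks in cerebellum was only that between 5747 and 5770. The difference was -0.64 ± 0.17 in forebrain (SE; adjusted p = 0.0253, limma) and -0.43 ± 0.17 in cerebellum (adjusted p = 0.156).

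Probe set 1420403_at had 10055 and 6865 in KI forebrain at 11 weeks, against 11239 and 12565 in WT forebrain. At 4 weeks it had 7576, 8595 and 11095 in KI forebrain, against 15158, 13106 and 13849 in WT forebrain. The forebrain groups did not overlap at either age, and the difference was -0.58 ± 0.16 (SE; adjusted p = 0.029, limma). In cerebellum it ranged from 9665 to 14173 over the 5 KI arrays, with a median of 12072, and from 9634 to 16222 over the 5 WT arrays, with a median of 12981, so the groups overlapped. That cerebellar difference was -0.14 ± 0.16 (adjusted p = 0.649), and the cerebellar effect minus the forebrain effect was 0.43, with a 95% interval of -0.05 to 0.92 (adjusted p = 0.62).

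**Figure D1:**
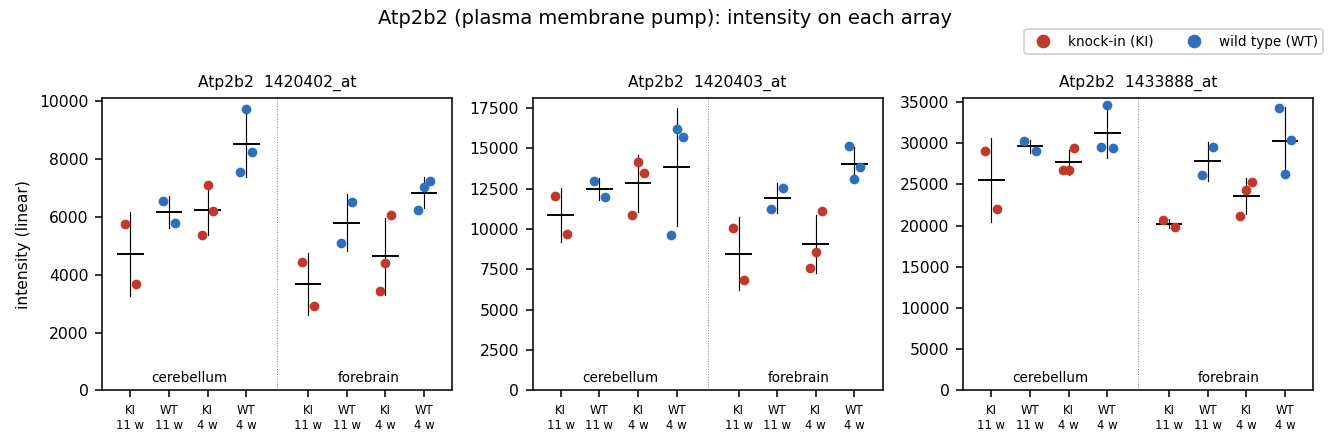
Linear intensity of the 3 Atp2b2 probe sets on each of the 20 arrays, by genotype, age and region; points are arrays, bars are group means and lines 1 SD. In forebrain the KI arrays of each age lie below the WT arrays of that age on all 3 probe sets, while in cerebellum only 1420402_at shows no overlap.

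Atp2a2 encodes the ER pump found in nearly every cell type, and its 4 probe sets gave unequal results. In KI forebrain 2 of them were called lower, 1452363_a_at and 1427250_at, and 1427251_at and 1416551_at were not called. All 4 were among those with differences below 0 in both regions. Which stretch of the transcript each probe set reads was not given in the files used here.

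Probe set 1452363_a_at had 24330 and 29612 in KI forebrain at 11 weeks, against 37202 and 33060 in WT forebrain. Its 4-week values were 26920, 29622 and 32788 in KI forebrain, against 39942, 37977 and 38446 in WT forebrain. The 5 KI values all lay below the lowest WT value of 33060. The forebrain difference was -0.39 ± 0.08 (SE; adjusted p = 0.00792, limma), a level 1.31-fold lower in KI. It was also the one member called in forebrain at 4 weeks alone, at -0.39 ± 0.10 (SE; adjusted p = 0.0324).

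In cerebellum this probe set had 36568 and 37571 in KI mice at 11 weeks, against 45095 and 48065 in WT mice. The arrays at 4 weeks gave 42159, 38898 and 40580 in KI cerebellum, against 43324, 47319 and 44865 in WT cerebellum. Here too no KI value reached the WT values of the same age, which makes 4 of 4 groups without overlap. The cerebellar difference of -0.24 ± 0.08 was nevertheless not called (SE; adjusted p = 0.0951, limma), and the cerebellar effect minus the forebrain effect was 0.14, with a 95% interval of -0.10 to 0.38.

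Probe set 1427250_at had 28404 and 26788 in KI forebrain at 11 weeks, against 38603 and 41804 in WT forebrain. At 4 weeks it had 33979, 36788 and 37420 in KI forebrain, against 30267, 41262 and 40842 in WT forebrain. The groups were clear of each other at 11 weeks and overlapped at 4 weeks through WT replicate 1, at 30267. The difference over both ages was -0.29 ± 0.09 (SE; adjusted p = 0.0407, limma). That call was lost in 4 of 9 other settings. It was also lost in most fits with 1 forebrain array left out, where the difference ran from -0.37 to -0.25. In cerebellum it had 39349 to 48999 in 5 KI arrays, with a median of 42605, against 47193 to 50706 in 5 WT arrays, with a median of 48897, and the difference was -0.18 ± 0.09 (adjusted p = 0.24).

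The brightest Atp2a2 probe set, 1416551_at, ranked 20 of the 15627 tested by mean intensity. It had 48082 to 62156 in 5 KI forebrain arrays, with a median of 57556, against 52590 to 70007 in 5 WT forebrain arrays, with a median of 57638. In cerebellum it had 62206 to 77101 in KI mice, with a median of 65857, against 67454 to 76883 in WT mice, with a median of 71884. The differences, -0.11 ± 0.09 in forebrain and -0.13 ± 0.09 in cerebellum, were not called (SE; adjusted p = 0.418 and 0.428, limma). At 11 weeks every KI array lay below every WT array in both regions, and at 4 weeks they overlapped. Of all tested probe sets, 22.4% in cerebellum and 21.1% in forebrain lay so at 11 weeks.

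The dimmest, 1427251_at, had 2828 to 3340 in 5 KI forebrain arrays, with a median of 2981, against 3176 to 4316 in WT forebrain, with a median of 3484. In cerebellum it had 2915 to 3769 in KI mice, with a median of 3493, against 3240 to 4428 in WT mice, with a median of 3902. Over both ages together the KI and WT ranges overlapped in both regions. At 11 weeks alone every KI array lay below every WT array in each region, and at 4 weeks they overlapped. Its differences were -0.25 ± 0.11 in forebrain and -0.21 ± 0.11 in cerebellum (SE; adjusted p = 0.142 and 0.298, limma).

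**Figure D2:**
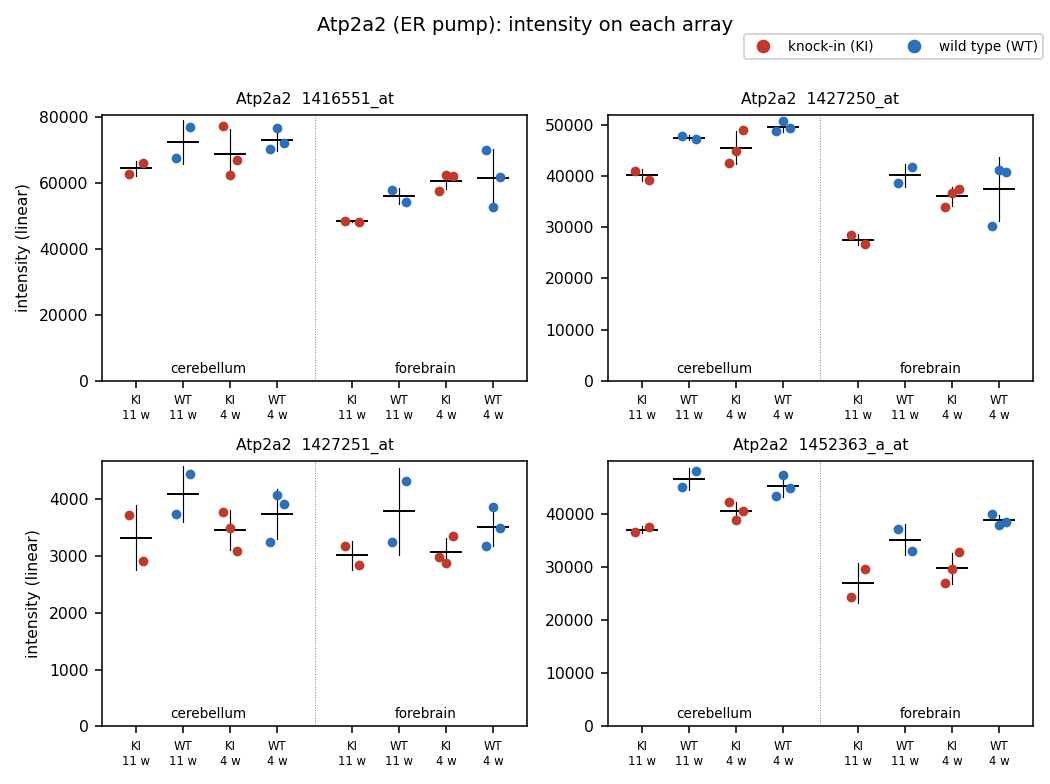
Linear intensity of the 4 Atp2a2 probe sets on each of the 20 arrays, by genotype, age and region; points are arrays, bars are group means and lines 1 SD. The KI arrays lie below the WT arrays of the same region and age in all 4 groups for 1452363_a_at, and overlap them in cerebellum and forebrain at 4 weeks for the other 3.

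Atp2a3, an ER pump with a lower affinity for calcium than the Atp2a2 product, differed by region, and no genotype difference of it was called. Probe set 1421129_a_at had 7119 and 5933 in KI cerebellum at 11 weeks, against 9914 and 7099 in WT cerebellum. Its 4-week values were 8542, 7965 and 7983 in KI cerebellum, against 7892, 9624 and 9436 in WT cerebellum. The genotypes overlapped at both ages.

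In forebrain 1421129_a_at had 717 and 1928 in KI mice at 11 weeks, against 1188 and 1529 in WT mice. The arrays at 4 weeks gave 1597, 1585 and 1587 in KI forebrain, against 1717, 500 and 1367 in WT forebrain. The lowest cerebellum value, 5933, was above the highest forebrain value, 1928. Cerebellum minus forebrain was 2.40 ± 0.29 in KI mice and 2.84 ± 0.29 in WT mice (SE; adjusted p = 5.17e-06 and 6.68e-07, limma), or 5.27-fold and 7.17-fold higher in cerebellum. Among the WT arrays at 4 weeks, whose region labels do not conflict, the gap between 7892 to 9624 in cerebellum and 500 to 1717 in forebrain remained.

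The other Atp2a3 probe set, 1450124_a_at, had 1400 and 1406 in KI cerebellum at 11 weeks, against 3634 and 2504 in WT cerebellum. At 4 weeks it had 2813, 2584 and 2326 in KI cerebellum, against 1800, 3625 and 4117 in WT cerebellum. The 2 KI arrays at 11 weeks were thus below all other cerebellum arrays, but the difference at that age, -1.10 ± 0.46, was not called (SE; adjusted p = 0.281, limma). In forebrain it had 212 to 1100 in 5 KI arrays, with a median of 845, against 455 to 736 in 5 WT arrays, with a median of 640.

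Those forebrain values lie around the 40th percentile of their arrays, and both WT arrays at 11 weeks were below it. Cerebellum minus forebrain was 1.58 ± 0.29 in KI mice and 2.33 ± 0.29 in WT mice (SE; adjusted p = 0.000384 and 7.44e-06, limma). The size for this dim probe set depends on the offset of the log scale and ran from 2.23 to 2.35 in WT mice over the alternative settings. Over both regions and ages the genotype differences of the Atp2a3 probe sets were -0.03 ± 0.20 and -0.28 ± 0.21 (SE; adjusted p = 0.938 and 0.341).

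**Figure D3:**
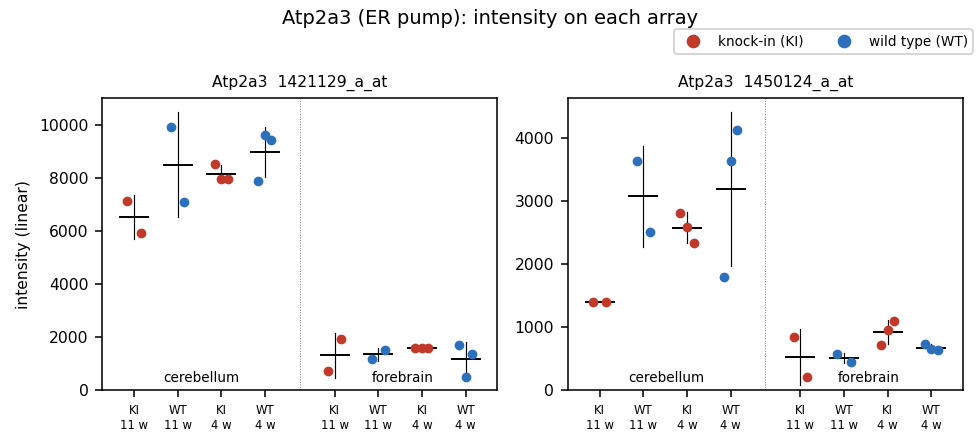
Linear intensity of the 2 Atp2a3 probe sets on each of the 20 arrays, by genotype, age and region; points are arrays, bars are group means and lines 1 SD. All 10 cerebellum arrays lie above all 10 forebrain arrays on both probe sets, and KI and WT arrays overlap in all groups but 1, 1450124_a_at in cerebellum at 11 weeks.

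The ER pump Atp2a2 also differed by region. Cerebellum minus forebrain was 0.44 ± 0.09 for 1427250_at, 0.46 ± 0.08 for 1452363_a_at and 0.30 ± 0.09 for 1416551_at in KI mice (SE; adjusted p = 0.000751, 0.000201 and 0.0124, limma). In WT mice the same differences were 0.33 ± 0.09, 0.31 ± 0.08 and 0.31 ± 0.09 (adjusted p = 0.00564, 0.00392 and 0.00867). All 3 were higher in cerebellum in both genotypes. The dim 1427251_at was not called in either genotype.

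Atp2b2 was called higher in cerebellum than forebrain only in KI mice, for 1420403_at at 0.44 ± 0.16 and 1433888_at at 0.28 ± 0.10 (SE; adjusted p = 0.0343 for both, limma). In WT mice these differences were 0.01 ± 0.16 and 0.07 ± 0.10, and that of 1420402_at was 0.20 ± 0.17. This regional contrast between genotypes is the same test as the difference in genotype effect between regions, for which no Atp2b2 probe set was called. Both KI calls depended on single arrays. With 1 KI array left out, that of 1420403_at was lost in 6 of 10 fits (0.30 to 0.58, adjusted p up to 0.187) and that of 1433888_at in 5 of 10 (0.18 to 0.38, adjusted p up to 0.206), the 0.18 being without KI cerebellum at 11 weeks replicate 1. Under other settings 1433888_at lost the call in 3 of 10 and 1420403_at in 1 of 9. Counted over the members, 7 of 9 were called higher in cerebellum in KI mice, where 24.5% of all tested probe sets were. In WT mice 5 of 9 were called higher in cerebellum, where 26.6% of all tested probe sets were. None of the 9 was called lower in either genotype, beside 21.2% and 21.3% of all tested in KI and WT mice. By the brightest probe set of each gene, 3 of 3 pump genes were called higher in KI mice, where 24.2% of all genes were. In WT mice 2 of 3 were, beside 27% of all genes.

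The 8 group means of each probe set can be put in order. For Atp2b2 1433888_at the order from the top was WT cerebellum at 4 weeks (31209 ± 3010), WT forebrain at 4 weeks (30292 ± 4040), WT cerebellum at 11 weeks (29643 ± 806), WT forebrain at 11 weeks (27821 ± 2380), KI cerebellum at 4 weeks (27681 ± 1560), KI cerebellum at 11 weeks (25535 ± 5050), KI forebrain at 4 weeks (23570 ± 2150) and KI forebrain at 11 weeks (20241 ± 570; SD, n = 3 at 4 weeks and 2 at 11 weeks). The 4 KI groups thus took the 4 lowest places, but only the last 2 neighbours in this order had ranges that did not overlap.

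For Atp2a2 1452363_a_at the lowest places were held by KI forebrain, with 29776 ± 2940 at 4 weeks and 26971 ± 3730 at 11 weeks, and the highest by WT cerebellum, with 46580 ± 2100 at 11 weeks and 45169 ± 2010 at 4 weeks. KI cerebellum at 4 weeks (40546 ± 1630) came next after WT cerebellum, with no overlap of ranges, and overlapped WT forebrain at 4 weeks (38788 ± 1030). For Atp2a3 1421129_a_at the 4 cerebellum groups, from 8984 ± 950 in WT at 4 weeks to 6526 ± 838 in KI at 11 weeks, all came before the 4 forebrain groups, from 1590 ± 6.45 in KI at 4 weeks to 1194 ± 626 in WT at 4 weeks.

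Counted over the 9 members, 5 were called lower and 0 higher in KI forebrain over both ages, where 5.13% of all tested probe sets were called lower and 8.36% higher. The split of all calls depends on scaling, with 5.61% lower and 5.41% higher after quantile normalization and 6.96% lower and 4.42% higher after cyclic loess. The median difference of the members was -0.29, beside 0.04 over all tested probe sets. The 5 calls were 3 probe sets of Atp2b2 and 2 of Atp2a2. By the brightest probe set of each gene, 1 of the 3 pump genes was called lower, where 4.83% of all genes were. The members differ in brightness, with 3 of them in the top 1% by mean intensity. Atp2b2 1420402_at, Atp2a2 1427251_at and both Atp2a3 probe sets lay outside the brightest 10%, brighter than 41.1% to 80.9% of those tested. The brightest 10% of all probe sets had a median of -0.02 with 6.53% called lower, a background only for the members within it.

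The forebrain count depended on single arrays. It was 1 without KI at 11 weeks replicate 2 or WT at 11 weeks replicate 2, 2 without KI at 4 weeks replicate 1, and 3 without KI at 4 weeks replicate 2 or WT at 11 weeks replicate 1. Atp2a2 1452363_a_at was called each time 1 forebrain array was left out. Without KI at 4 weeks replicate 3, the array with the most conflicting labels, the count was 5.

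At 4 weeks alone 1 of 9 was called lower in KI forebrain, where 2.42% of all tested probe sets were, and leaving out any 1 of the 6 arrays gave 0 calls, except KI replicate 3, whose removal gave 3. At 11 weeks alone 0 of 9 were called in forebrain, where 0.48% were called lower, although 4 had an unadjusted p under 0.05 in limma.

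In KI cerebellum 0 of the 9 were called, with 3 at an unadjusted p under 0.05 in limma and a smallest adjusted p of 0.0951. Of all tested probe sets 1.1% were called lower there. All 9 differences lay below 0, from -0.66 for Atp2a3 1450124_a_at to -0.13 for Atp2a2 1416551_at, with a median of -0.21 beside 0.02 over all tested probe sets.

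Averaged over the 4 region and age groups, 6 of the 9 were called lower in KI and 0 higher, where 8.65% of all tested probe sets were called lower and 15% higher. Under quantile normalization that background was 9.95% and 10.1%, and under cyclic loess 12.1% and 8.93%. By the brightest probe set of each gene, 1 of the 3 pump genes was called lower, where 8.47% of all genes were. The differences called were -0.54 ± 0.12, -0.36 ± 0.11 and -0.30 ± 0.07 for Atp2b2 1420402_at, 1420403_at and 1433888_at (SE; adjusted p = 0.00674, 0.0318 and 0.0083, limma). For Atp2a2 they were -0.31 ± 0.06 for 1452363_a_at, -0.24 ± 0.06 for 1427250_at and -0.23 ± 0.08 for 1427251_at (SE; adjusted p = 0.00186, 0.014 and 0.0469, limma). Atp2a2 1416551_at was not called, at -0.12 ± 0.06 (adjusted p = 0.175). With 1 array left out the count was 4 to 6. The call of 1427251_at was lost in 13 of 20 such fits (adjusted p up to 0.125) and in 3 of 9 other settings, and that of Atp2b2 1420403_at in 9 of 20 (adjusted p up to 0.0906) and in 2 of 9, while the other 4 calls were kept in each of the 20 fits.

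Every KI array lay below every WT array in all 4 groups for 2 of the 9 members, where 0.998% of all tested probe sets did so. Group by group, 6 of 9 members did so in cerebellum at 11 weeks (22.4% of all tested), 2 in cerebellum at 4 weeks (7.59%), 7 in forebrain at 11 weeks (21.1%) and 4 in forebrain at 4 weeks (11.5%). The 2 members without overlap anywhere were Atp2a2 1452363_a_at and Atp2b2 1420402_at.

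**Figure D4:**
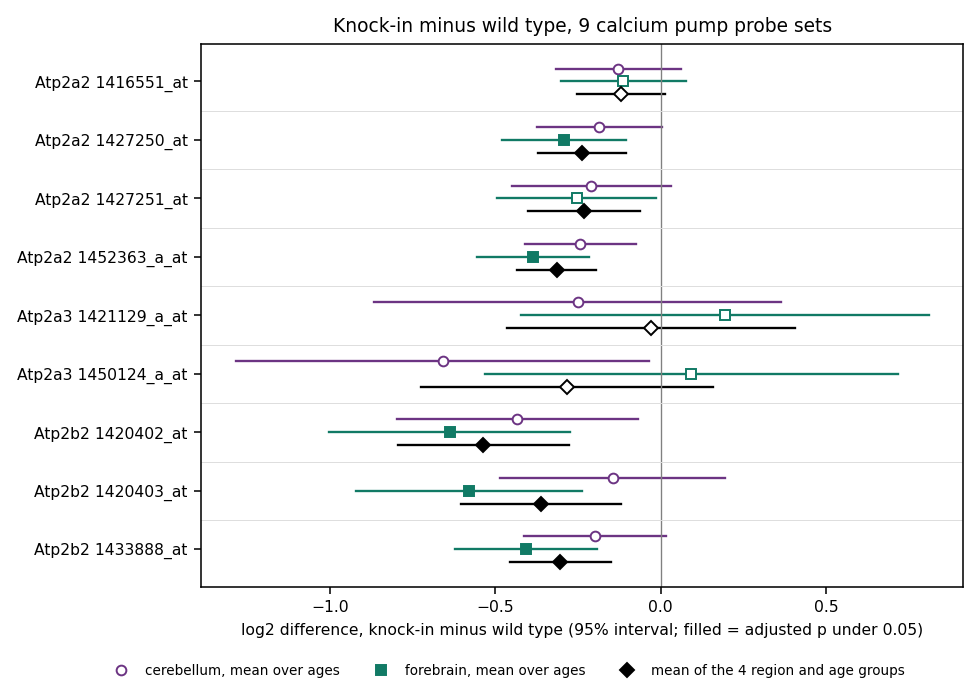
KI minus WT difference on the log2(intensity + 16) scale for the 9 calcium pump probe sets, in cerebellum, in forebrain and over all 4 region and age groups; bars are 95% intervals and filled symbols have an adjusted p under 0.05. In forebrain 5 of 9 symbols are filled, all below 0, and in cerebellum none is filled.

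Age moved no member past the threshold. The 11-minus-4-week differences were called for 0 of 9 members in each of KI cerebellum, WT cerebellum, KI forebrain and WT forebrain, where 0.557%, 0.198%, 0.064% and 0.0064% of all tested probe sets were called in either direction. At an unadjusted p under 0.05 in limma, 3 of 9 passed in KI forebrain and 0 in the other 3. In KI forebrain Atp2a2 1427250_at had -0.39 ± 0.13, Atp2a2 1416551_at had -0.33 ± 0.13 and Atp2a3 1450124_a_at had -1.07 ± 0.42 (SE; adjusted p = 0.254, 0.334 and 0.343). The genotype difference at 11 weeks minus that at 4 weeks, averaged over the regions, was called for 0 of 9, with a smallest adjusted p of 0.625 and 1 unadjusted p under 0.05. The genotype difference in cerebellum minus that in forebrain was likewise called for 0 of 9, with a smallest adjusted p of 0.62 and 0 at an unadjusted p under 0.05. Of all tested probe sets, 0.282% were called for this contrast of regions and 0% for the contrast of ages.

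Other genes of calcium handling were set beside the pumps, each by its brightest probe set that passed the filter. Atp2a1, the ER pump of fast skeletal muscle, had 152 to 940 over the 20 arrays with a median of 625, was above the limit on 7 arrays, and was not called. Atp2b4, the remaining plasma membrane pump, has no probe set in the annotation used and was not analysed here. Of 8 other pumps and exchangers tested, 1 was called higher in KI forebrain and 0 lower, with a median of 0.22 beside 0.05 over all 9105 genes, of which 9.45% were called higher and 4.83% lower. The gene called was Slc8b1, the mitochondrial sodium/calcium/lithium exchanger, at 0.48 ± 0.12 (SE; adjusted p = 0.0162, limma).

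Slc8b1 had 1107 to 1121 in KI forebrain at 11 weeks, against 979 to 1013 in WT forebrain. Its 4-week values were 1160 to 1492 in KI forebrain, against 682 to 934 in WT forebrain. The KI arrays were above the WT arrays at both ages, and the difference at 4 weeks alone was 0.80 ± 0.15 (SE; adjusted p = 0.0073, limma). The plasma membrane sodium/calcium exchangers Slc8a1, Slc8a2 and Slc8a3 had differences of 0.14, 0.48 and 0.54, none of them called. Another Slc8a1 probe set was at -0.26 and not called.

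Of 7 tested partners and regulators of the pumps, 1 was called higher in KI forebrain and 0 lower, with a median of 0.14. It was Slc9a3r2, a PDZ scaffold that binds Atp2b pumps, at 0.69 ± 0.18 (SE; adjusted p = 0.0237, limma). Its 6 probe sets ran from 0.12 to 0.73, and the lowest, at 0.12, was the one not called. Nptn and Bsg, immunoglobulin-family partners of the plasma membrane pumps, were at 0.15 and 0.06 and not called, and Pln and Sln, the small inhibitors of the ER pumps known from muscle, were below the filter.

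Among 13 tested genes of ER calcium release, entry and storage, 0 were called in KI forebrain by their brightest probe set, with 5 at an unadjusted p under 0.05 in limma and a median of 0.05. Dimmer probe sets of Itpr2, an inositol trisphosphate receptor, and Stim1, the ER calcium sensor of store-operated entry, were called higher, at 0.63 ± 0.18 and 0.77 ± 0.23 (SE; adjusted p = 0.0333 and 0.0368, limma), where their brightest were at -0.23 and 0.13 and not called. Another Itpr2 probe set was at 0.36 and not called. Of all tested probe sets 8.36% were called higher in KI forebrain. The ryanodine receptor gene Ryr2 was at -0.23 ± 0.09 and the ER chaperone gene Hsp90b1 at -0.33 ± 0.14 (SE; adjusted p = 0.0911 and 0.123, limma). Over all 4 groups, by the brightest probe sets, 1 of the 13 was called higher and 2 lower, beside 16.2% and 8.47% of all genes. They were Casq1, a calcium-binding protein of the ER lumen, at 0.43 ± 0.11, Ryr2 at -0.20 ± 0.06 and Hsp90b1 at -0.29 ± 0.10 (SE; adjusted p = 0.0143, 0.0322 and 0.0426, limma). Another Ryr2 probe set was at 0.11 and another of Hsp90b1 at -0.03, neither called. Among the dimmer probe sets, 1 each of Itpr2 (0.52), Stim1 (0.65), Canx (0.23) and Ryr3 (0.24) were called higher over the 4 groups (adjusted p = 0.0102, 0.0102, 0.0387 and 0.0393, limma), where the brightest probe set of each was not called. Other probe sets of Canx were at -0.22 and -0.01 and of Itpr2 at 0.09 and -0.17, none called. Of all tested probe sets 15% were called higher over the 4 groups.

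Among 9 tested cytosolic calcium buffers and sensors, 1 was called higher in KI forebrain and 0 lower, with a median of 0.01. This was Ncs1, a neuronal calcium sensor, at 0.49 ± 0.14 (SE; adjusted p = 0.0316, limma), whose dimmer probe set was at 0.16 and not called. Over the 4 groups 1 of the 9 was called higher and 1 lower. Ncs1 was the higher one, at 0.43 ± 0.10 (adjusted p = 0.00715). Calb1, a calcium buffer abundant in Purkinje cells, was the lower one, at -0.15 ± 0.05 (adjusted p = 0.0391), and its other probe set was at -0.28 (adjusted p = 0.0634). In KI cerebellum 0 of the 37 genes of these 4 lists were called, with 9 at an unadjusted p under 0.05 in limma, where 2.59% of all genes were called higher and 1.13% lower. The list medians there were 0.15 for other pumps and exchangers, 0.13 for partners, -0.07 for ER release and storage, and -0.03 for buffers and sensors.

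**Figure D5:**
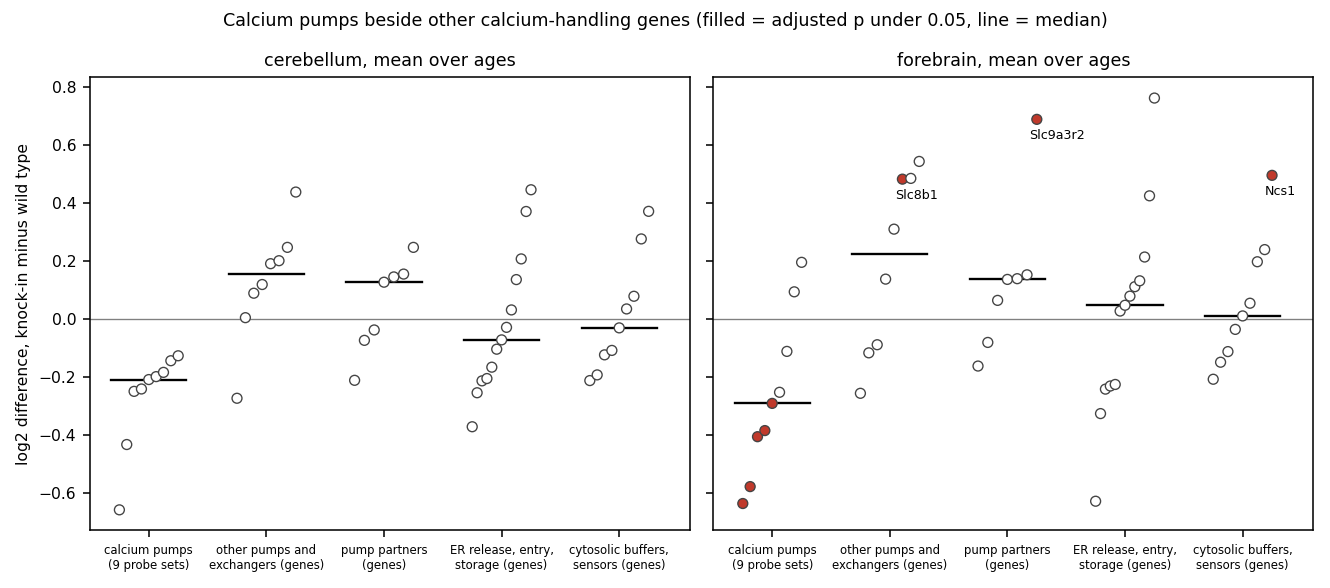
KI minus WT log2 difference of the 9 calcium pump probe sets beside 4 lists of other calcium-handling genes, in cerebellum and forebrain, averaged over the ages; each point is a probe set or gene, the line is the median, and filled points have an adjusted p under 0.05. The pump median in forebrain is -0.29 over 9 probe sets and -0.11 over the 3 genes by their brightest probe set (1 called lower), the basis on which the other 4 medians run from 0.01 to 0.22.

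Cell type markers were also described, by the sum of their intensities on each array. The 7 tested of 12 Purkinje cell markers summed to an intensity of 218297 to 255100 in KI cerebellum at 11 weeks, against 280844 to 282670 in WT cerebellum. At 4 weeks they summed to 248653 to 254031 in KI cerebellum, against 274507 to 283404 in WT cerebellum. The 7 tested of 9 granule neuron markers summed to 173837 to 175817 in KI cerebellum at 11 weeks, against 186970 to 188075 in WT cerebellum, and at 4 weeks to 182300 to 193102 in KI against 202409 to 209454 in WT. Both sums were lower in KI with no overlap at either age. Of all tested probe sets taken singly, 22.4% lay so in cerebellum at 11 weeks and 7.59% at 4 weeks. A sum weighs its brightest genes most. Within these lists, 1 of 7 Purkinje markers and 0 of 7 granule markers were called lower in KI cerebellum, where 1.13% of all genes were. Other sums without overlap in cerebellum were, at 11 weeks, oligodendrocyte and excitatory neuron markers, lower in KI, and choroid plexus markers, higher in KI. At 4 weeks microglia markers were higher in KI and choroid plexus markers lower.

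In forebrain the 7 tested of 9 excitatory neuron markers summed to 67243 to 75459 in KI mice at 11 weeks, against 88103 to 92455 in WT mice. At 4 weeks they summed to 75126 to 79722 in KI forebrain, against 78008 to 109653 in WT forebrain, with an overlap. The median difference of this list was -0.27, beside -0.11 for the 3 pump genes on the same basis of 1 probe set per gene, with 1 of 7 called higher and 1 lower. The Purkinje markers, which forebrain also expresses at a lower level, summed to 36974 to 38897 in KI forebrain at 11 weeks, against 47808 to 49261 in WT forebrain, and at 4 weeks to 41433 to 47527 in KI against 53015 to 59959 in WT. That sum was lower in KI at both ages with no overlap, with 2 of 7 called lower and 1 higher. Of all tested probe sets taken singly, 21.1% lay wholly lower in KI forebrain at 11 weeks and 11.5% at 4 weeks. The 7 astrocyte markers had a median of -0.29, with 1 of 7 called lower, and their sum was 44834 to 45416 in KI against 50758 to 54733 in WT forebrain at 11 weeks, with overlap at 4 weeks. The 8 microglia markers summed to 34701 to 38565 in KI forebrain at 11 weeks, against 38981 to 41513 in WT forebrain, and at 4 weeks to 42852 to 47532 in KI against 38417 to 40856 in WT, so this sum was lower in KI at 11 weeks and higher at 4 weeks. The sum of the 6 tested of 7 oligodendrocyte markers was higher in KI forebrain at 4 weeks, at 108732 to 137656 against 106703 to 108586 in WT forebrain, and overlapped at 11 weeks. Averaged over the ages, 0 of the microglia and oligodendrocyte markers were called in forebrain, with 2 of 8 and 0 of 6 at an unadjusted p under 0.05 in limma. At 4 weeks alone 1 of 8 microglia markers was called higher, where 5.55% of all genes were. It was Tmem119, at 0.46 ± 0.12 (SE; adjusted p = 0.0334, limma). No marker was listed at 0. The 3'/5' actin ratio was 0.934 to 1.06 in KI forebrain at 11 weeks, against 1.09 to 1.15 in WT forebrain, and the GAPDH ratio was 0.848 to 0.903 in KI cerebellum at 11 weeks, against 0.823 to 0.842 in WT cerebellum. The part of cell makeup and RNA quality in the pump differences was not tested.

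The genes with the most similar pattern over the 8 group means were found by the root mean square (RMS) difference of the centred log2 means, among 9104 genes. For Atp2b2 1433888_at they were Eif2b1 at 0.053, Otud7a at 0.059 and Serp1 at 0.061 log2 units, beside a span of 0.62 for Atp2b2 itself. For Atp2a3 1421129_a_at they were Marveld2 at 0.155, Mapk12 at 0.158 and Icmt at 0.185, beside a span of 3.06. For Atp2a2 1416551_at they were Hmces at 0.048, Gm2a at 0.052 and Nampt at 0.056, beside a span of 0.60. All 20 arrays enter these means, which share libraries and scaling, so the likeness is a description.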

How the data were processed

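The authors deposited 1 linear intensity for each probe set on each array. The mean after trimming 2% lay between 2500.59 and 2500.75 for all arrays, which shows scaling to a common mean before deposit. Not given in the sources used here are the software and further normalization, and detection calls were not used. Values were analysed as log2(intensity + 16). Of 22690 probe sets, 64 are array controls. The annotation names a single gene for 20380 of the others, several for 691 and none for 1555, and 20351 were matched to RefSeq (GRCm38.p6), with 0 symbols updated. The array files name no genome build, and coordinates are those of the RefSeq promoter table.

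Probe sets above the array's 40th percentile (median limit 681) on at least 2 arrays were kept, 15627 in all. The 8 group means were estimated from all 20 arrays by limma 3.58.1 (lmFit and eBayes, R 4.3.3) on 12 residual and 3.45 prior degrees of freedom and no block. Means over ages or regions weight each equally. The code was tested on simulated data. Precision is limited by 2 or 3 arrays per group.

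All probe sets of the pump genes are given. From the lists of other calcium-handling genes and markers, up to 4 genes by p were eligible to be named where a list had a call. Other genes were also named to describe a list, after their values were seen: Slc8a1, Bsg, Pln, Sln and the other probe sets of named genes. Itpr2, Stim1, Canx and Ryr3 were named because a dimmer probe set of each was called. The members and lists were chosen with earlier results of these data known. Same-numbered arrays were checked for pairing by the correlation of their deviations from the group means. These ran from -0.099 to 0.052 between KI and WT and from -0.023 to 0.113 between cerebellum and forebrain, with 0 of 10 and 1 of 10 pairs over 0.1. In groups of 2 arrays the deviations mirror each other, so both replicate numbers give the same correlation. The check therefore cannot decide whether the numbers pair the arrays. Alternatives were other offsets, normalizations and filters, only the compared arrays, 1 probe set per gene, replicate blocks and leaving out each array.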

Additional observations from a re-analysis of the deposited data

How the results depend on the processing

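No result changed direction: 24 called differences of single pump probe sets were refitted 519 times, of which 445 kept the call and 74 lost it, 56 of 296 without 1 array and 18 of 223 under other settings. Counts of pump probe sets called moved as follows. In KI forebrain over both ages the count was 5, against 3 with no filter, 3 with only the compared arrays and 1 of 3 tested with 1 probe set per gene, and 1 to 5 with 1 array left out. In KI forebrain at 4 weeks the count was 1, against 0 with no filter, 0 with only the compared arrays (5 at an unadjusted p under 0.05 in limma) and 0 with 1 probe set per gene, and 0 to 3 with 1 array left out. With 1 probe set per gene, of which 3 are pumps, the counts were 1 over the 4 groups, 3 between regions in KI and 2 between regions in WT, against 6, 7 and 5. The 11-minus-4-week count in KI forebrain was 0, and 0 to 1 with 1 array left out, the 1 being without KI at 11 weeks replicate 1. A left-out array leaves 1 array in an 11-week group, which is then assumed to vary like the other groups.

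Whether the numbers pair the arrays is not known. With a replicate block of age and number, 2 pump probe sets were called in KI forebrain at 4 weeks, against 1 without it, 5 in forebrain over both ages, as without it, and 5 over the 4 groups, against 6. With genotype, age and number as a random block (consensus correlation 0.057) the counts were 1, 5 and 5.

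Quantile and cyclic loess normalization moved no median of all probe sets by over 0.1. At the least bright probe sets, around the limit of 681, sizes depend on the offset. The cause of each lost call was not tested.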
